A study of Chrysanthemum x morifolium with 40 samples.

Results

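The change in root gene expression after 12 h of waterlogging was compared between the chrysanthemum cultivars EWT and CK. The comparison used 16 of the 40 root libraries of the series, which were chosen by their labels alone: EWT at 12 h, EWT at 0 h, CK at 12 h and CK at 0 h, with 4 libraries each. EWT, short for 'Enhanced Waterlogging Tolerance', is a variety of the chrysanthemum 'Hangju'. CK is 'zaoxiaoyangju', a conventional cultivar that the study calls sensitive. Seedlings of 8 weeks raised from cuttings were submerged to above their upper leaves in the 12 h groups of both cultivars. The 0 h groups were sampled before flooding. No unflooded root was sampled at 12 h, so waterlogging and the time of day cannot be told apart within a cultivar. Each cultivar is 1 clonally propagated genotype, so a difference between them belongs to these cultivars and not to tolerance as such. The sources call the libraries of a group biological replicates without saying how many plants gave each, and p-values measure the spread between these libraries.

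Waterlogged roots lose oxygen because gases diffuse slowly through water. Plant cells then make ATP by glycolysis and keep glycolysis running by turning pyruvate into ethanol or lactate. The gaseous hormone ethylene is trapped in the flooded tissue, and group VII ethylene response factors, which oxygen-dependent degradation removes in air, accumulate and switch on the hypoxia genes. Sugar supply limits how long this can last, and phytoglobins, the class that includes non-symbiotic hemoglobin, scavenge the nitric oxide formed from nitrite in hypoxic roots.

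The quantity reported is the interaction, which is the 12 h minus 0 h change in EWT less the 12 h minus 0 h change in CK, on the scale of log2(FPKM + 0.1). FPKM is the fragment count of a gene scaled by its length and by a library size. The library size behind the deposited values was not the number of fragments counted on genes. It was 0.762 to 0.838 times that number in EWT at 12 h and 1.15 to 1.29 times in EWT at 0 h. The CK ranges were 0.780 to 0.991 times at 12 h and 1.14 to 1.23 times at 0 h. A positive interaction means that the 12 h change was higher in EWT, whether EWT rose more or CK fell more. A gene was called at a Benjamini-Hochberg adjusted p of at most 0.05 over all 89517 genes tested in limma and an interaction of at least 1, which is 2-fold. Adjusted p-values below are from limma, and fold changes of genes near 0 FPKM are understated on this scale.

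Between 5145989 and 7643641 fragments were counted on genes in EWT at 12 h, and between 7925058 and 9929777 in EWT at 0 h. The ranges were 3896104 to 4632569 in CK at 12 h and 5361802 to 7588620 in CK at 0 h, so low genes were measured least precisely in CK at 12 h. The mean correlation of a library with the others of its group lay between 0.844 and 0.923 over log2 values of all tested genes, and no pair of libraries was identical. The lowest was that of CK 12 h replicate 4. Its values were also the lowest of the CK 12 h libraries for PEP carboxykinase, sugar transporters and small heat shock proteins, and the text gives values without it where it ended a call or moved a count by 1.5 times or more, lists with at most 1 gene more or less aside. A list of 286 gene models matched to leaf photosynthesis proteins summed to 428 to 503 FPKM in EWT at 12 h and 124 to 163 FPKM in EWT at 0 h. The sums were 213 to 342 FPKM in CK at 12 h and 90.6 to 213 FPKM in CK at 0 h. Of these models 118 were at 0 in all EWT 12 h libraries and 154 in all CK 12 h libraries, and 10 of 96 tested had a higher and 3 a lower change in EWT. The part of this list in the results below was not tested, and in whole roots a change in the number of cells of a type and in RNA per cell cannot be told apart. Of 110 root markers 15 had a higher and 1 a lower change, or 15 and 3 without CK 12 h replicate 4. This list summed to 10514 ± 1034 FPKM in EWT at 12 h, 8312 ± 1711 FPKM in EWT at 0 h, 5995 ± 1347 FPKM in CK at 12 h and 7308 ± 829 FPKM in CK at 0 h (SD, n = 4 each).

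Among the lists examined, PEP carboxykinase, sugar transporter, trehalose and xyloglucan enzyme genes held more higher than lower changes in EWT, and pyruvate decarboxylase, hemoglobin, nitrite reductase and ethylene genes held more lower ones. Most genes tested had no called difference. In EWT 18125 genes (20.2%) were higher and 23731 (26.5%) lower at 12 h than at 0 h. In CK 16515 genes (18.4%) were higher and 24271 (27.1%) lower. The interaction was called for 9674 genes (10.8%), of which 5348 (5.97%) had a higher and 4326 (4.83%) a lower change in EWT. These last percentages are the background against which each gene list below is read. The median interaction over all tested genes was 0.04, its 5th and 95th percentiles were -2.27 and 2.51, and the median standard error was 0.74. Differences of 2-fold, and larger ones in genes with a wider error, were therefore beyond reach for many genes, and a gene that was not called is not shown to change alike. Leaving out CK 12 h replicate 4 gave 5674 genes with a higher and 4430 with a lower change, of which 8599 were among the 9674.

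**Figure D1:**
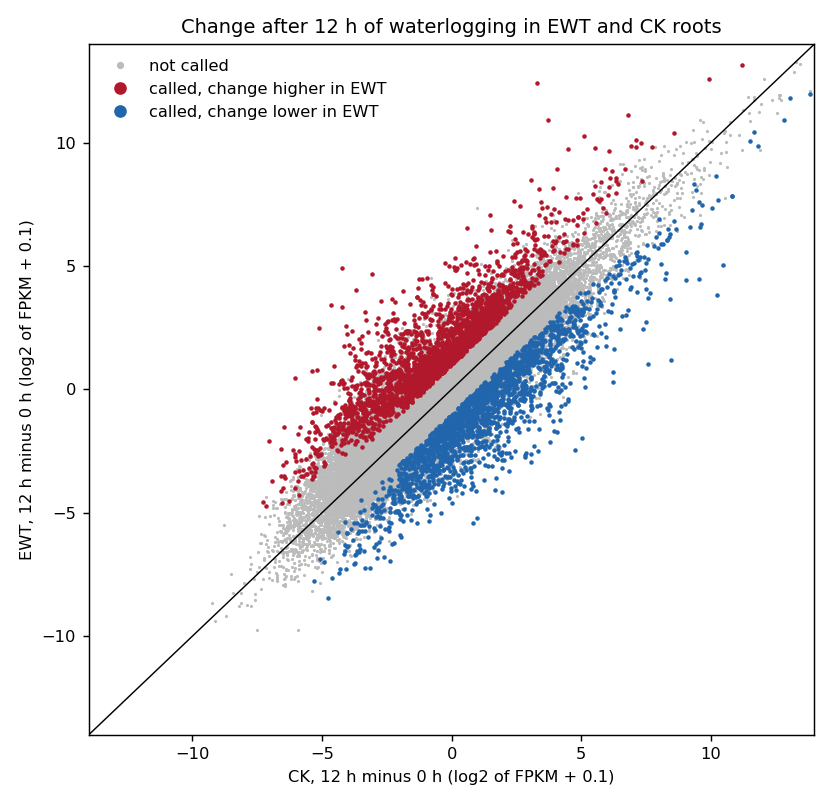
Change from 0 h to 12 h in EWT (vertical axis) against that in CK (horizontal axis), both as a difference of group means of log2(FPKM + 0.1), for the 53298 tested genes with a mean of at least 1 FPKM in both cultivars. Grey points were not called, red points had a higher and blue points a lower change in EWT, and the line marks equal change. Most points lie along the line, with 2567 red and 2113 blue points at its sides.

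Of the called genes 4994 (51.6%) stayed under a mean of 1 FPKM in both groups of a cultivar. Among the genes tested that were detected in both cultivars, 4680 (8.78%) were called. Of the genes tested that stayed under 1 FPKM in both groups of a cultivar, or of both cultivars, 13.8% were called. Of the 2567 genes detected in both with a higher change in EWT, 783 rose in EWT alone, 526 rose in both, 138 rose in EWT and fell in CK, 703 fell in CK alone and 220 fell in both. Of the 2113 with a lower change, 615 fell in EWT alone, 532 rose in CK alone, 418 rose in both, 310 fell in both and 108 fell in EWT while rising in CK. The others passed the call rule in neither cultivar taken singly.

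The interaction can also be read between cultivars at each time. EWT and CK differed in 26824 genes (30.0%) at 0 h and in 34177 (38.2%) at 12 h. Of the 2567 genes with a higher change in EWT, 1290 differed between the cultivars only at 12 h, 607 only at 0 h, where EWT was lower, and 108 were lower in EWT at 0 h and higher at 12 h. Of the 2113 with a lower change, 1063 differed only at 12 h, 474 only at 0 h, where EWT was higher, and 97 were higher in EWT at 0 h and lower at 12 h. A called interaction was thus in 607 and 474 cases a difference of the unflooded roots without a called difference of the flooded ones.

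**Figure D2:**
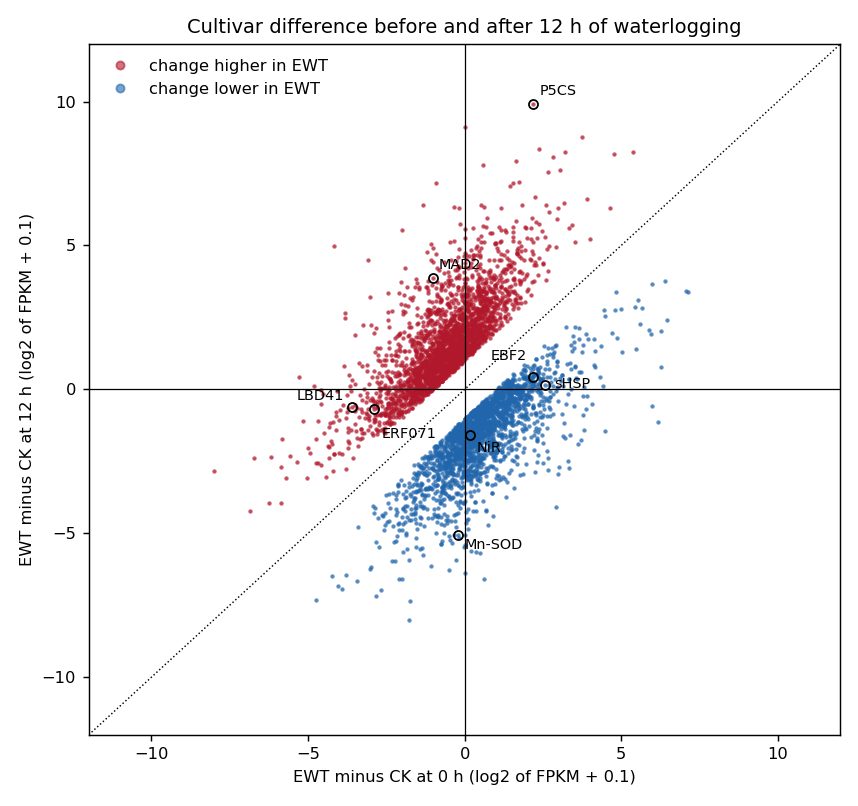
EWT minus CK at 12 h (vertical axis) against EWT minus CK at 0 h (horizontal axis), as differences of group means of log2(FPKM + 0.1), for the 4680 called genes detected in both cultivars. Red points had a higher and blue points a lower change in EWT, the dotted line marks equal differences, and circles mark named genes. MAD2, P5CS and Mn-SOD lie far from 0 at 12 h, and LBD41, ERF071, EBF2 and a small heat shock gene (sHSP) lie nearer to 0 at 12 h than at 0 h.

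Among known hypoxia regulators, some differed more in unflooded than in flooded roots. ERF071, known in Arabidopsis as the group VII factor HRE2, was matched by evm_TU_scaffold_1573_287 (chromosome 13, 267534710 to 267547541). It had 652, 549, 814 and 653 FPKM in EWT at 12 h and 1.64, 2.20, 1.37 and 1.48 FPKM in EWT at 0 h. In CK it had 1127, 1273, 1010 and 857 FPKM at 12 h and 11.1, 25.8, 6.95 and 13.6 FPKM at 0 h. From its transcriptome and qPCR, the study reports CmHRE2 as raised by waterlogging and higher in EWT than in CK. Whether this model is that gene was not tested. In this model EWT was below CK at both times without overlap, and the interaction was positive with the wider gap at 0 h (2.21 ± 0.31, SE, adjusted p = 3.8e-06). LOB domain-containing protein 41, a nuclear factor of the hypoxia core set in Arabidopsis, had the same pattern at evm_TU_scaffold_24_295 (interaction 2.97 ± 0.40, SE, adjusted p = 1.8e-06). It had 446, 342, 433 and 381 FPKM in EWT at 12 h and 0.283, 0.372, 0.324 and 0.311 FPKM in EWT at 0 h. The CK libraries had 550, 657, 616 and 636 FPKM at 12 h and 3.08, 13.7, 3.29 and 4.38 FPKM at 0 h. Across the list, 8 of 46 LOB domain genes had a higher and 0 a lower change, and 1 of 23 group VII factors had a higher change. Plant cysteine oxidases, the oxygen sensors that mark these factors for degradation, had 0 higher and 1 lower of 13.

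PEP carboxykinase, which turns oxaloacetate into phosphoenolpyruvate in gluconeogenesis and nitrogen metabolism, had a higher change for 6 and a lower change for 1 of 27 gene models. The list summed to 1789 ± 110 FPKM in EWT at 12 h and 122 ± 11.2 FPKM in EWT at 0 h, against 640 ± 271 FPKM in CK at 12 h and 87.9 ± 9.62 FPKM in CK at 0 h (SD, n = 4 each). The most abundant model, evm_TU_scaffold_1217_113 (chromosome 18, 12447732 to 12452103), had 550, 512, 523 and 593 FPKM in EWT at 12 h and 22.8, 24.8, 20.4 and 32.1 FPKM in EWT at 0 h. Its CK values were 205, 173, 147 and 75.9 FPKM at 12 h and 13.0, 15.1, 16.4 and 14.5 FPKM at 0 h. Each EWT 12 h library was above each CK 12 h library (exact permutation p = 0.0286, two-sided, the smallest that 4 against 4 libraries can give). The interaction of 1.21 ± 0.38 (SE, adjusted p = 0.030) fell to 0.91 (adjusted p = 0.090) without CK 12 h replicate 4, which ended the call, and 4 models with a higher and 1 with a lower change then remained.

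Sugar transporters had a higher change for 13 and a lower change for 3 of 80 models, or 9 and 3 without CK 12 h replicate 4. Their median interaction of 0.04 equalled that of all genes. The list was led by ERD6-like 16, a member of the family of vacuolar sugar exporters. Its model evm_TU_scaffold_805_278 had 1127, 1329, 1525 and 1413 FPKM in EWT at 12 h and 123, 167, 114 and 140 FPKM in EWT at 0 h. In roots of CK, it had 526, 458, 444 and 164 FPKM at 12 h and 94.9, 93.9, 80.1 and 92.3 FPKM at 0 h. The cultivars did not overlap at 12 h, and the interaction was 1.30 ± 0.38 (SE, adjusted p = 0.020), or 0.92 (adjusted p = 0.060) without CK 12 h replicate 4. Of the SWEET sugar exporters 4 of 24 had a higher change and 0 a lower change, but their median interaction was -0.45. Their sum fell in both cultivars, from 264 to 161 FPKM in EWT and from 265 to 115 FPKM in CK.

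Sucrose synthase, which spares ATP by cleaving sucrose with UDP, summed to 4646 ± 556 FPKM in EWT at 12 h and 326 ± 59.8 FPKM in EWT at 0 h, against 5473 ± 561 FPKM in CK at 12 h and 401 ± 52.3 FPKM in CK at 0 h (SD, n = 4 each), with 2 higher and 2 lower changes of 25, or 1 and 1 without CK 12 h replicate 4. Invertases, which hydrolyse sucrose to glucose and fructose, had 5 higher and 2 lower of 73. The most abundant with a higher change was a soluble, vacuolar-type invertase, evm_TU_scaffold_647_127_evm_TU_scaffold_647_128 (chromosome 27, 209390791 to 209394441). It had 77.4, 71.0, 60.3 and 71.8 FPKM in EWT at 12 h and 80.7, 85.0, 66.0 and 77.0 FPKM in EWT at 0 h. CK roots had 2.88, 2.94, 4.23 and 4.08 FPKM at 12 h and 80.6, 48.1, 44.9 and 60.8 FPKM at 0 h. It fell in CK, and its change in EWT was -0.14 (interaction 3.86 ± 0.33, SE, adjusted p = 2.0e-10). Summed over all 19 models with that protein match, soluble invertase I had 163 ± 17.3 FPKM in EWT at 12 h and 644 ± 59.5 FPKM in EWT at 0 h, against 11.3 ± 1.60 FPKM in CK at 12 h and 548 ± 86.5 FPKM in CK at 0 h. The interaction of the sum was 3.60 ± 0.38 (SE, adjusted p = 6.6e-09).

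Genes matched by name to trehalose-phosphate synthases and phosphatases had 12 higher and 1 lower of 79. These families include the enzymes that make and remove the sugar signal trehalose 6-phosphate. Whether each member, TPS7 included, has that activity was not tested. The class II member TPS7, evm_TU_scaffold_1776_198, had 283, 332, 339 and 311 FPKM in EWT at 12 h and 34.5, 35.2, 30.2 and 41.5 FPKM in EWT at 0 h. The same model had 151, 153, 163 and 130 FPKM in CK at 12 h and 42.9, 51.5, 43.7 and 48.7 FPKM at 0 h (interaction 1.49 ± 0.23, SE, adjusted p = 2.0e-05). Its libraries were tight in all 4 groups, and it rose in both cultivars but more in EWT. Raffinose and stachyose synthases had 3 higher and 0 lower of 18, and their sum was 2786 ± 278 FPKM in EWT at 12 h, 187 ± 36.9 FPKM in EWT at 0 h, 1541 ± 519 FPKM in CK at 12 h and 213 ± 24.2 FPKM in CK at 0 h (SD, n = 4 each). Galactinol synthase, which feeds raffinose synthesis, had 0 higher and 0 lower of 20, with a median interaction of -0.36. Inositol oxygenase, which opens the inositol ring to glucuronate for cell wall sugars, had 2 higher of 7. Neither of these calls held without CK 12 h replicate 4 (0 higher and 0 lower of 7).

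The proline lists were added after the values were seen. Delta-1-pyrroline-5-carboxylate synthase (P5CS), the rate-limiting enzyme of proline synthesis, summed to 433 ± 69.6 FPKM in EWT at 12 h and 147 ± 23.0 FPKM in EWT at 0 h, against 115 ± 15.8 FPKM in CK at 12 h and 135 ± 17.8 FPKM in CK at 0 h (SD, n = 4 each). Of 26 models 3 had a higher and 2 a lower change, or 3 and 3 without CK 12 h replicate 4. The short model evm_TU_scaffold_364_68 (228 bases, chromosome 7, 227416631 to 227417240) had 232, 177, 185 and 156 FPKM in EWT at 12 h and 10.4, 9.31, 9.71 and 16.9 FPKM in EWT at 0 h. For CK the values were 0, 0, 1.20 and 0 FPKM at 12 h and 1.86, 4.05, 2.76 and 1.52 FPKM at 0 h. It rose in EWT and fell in CK (interaction 7.74 ± 1.11, SE, adjusted p = 5.8e-06). A second model, evm_TU_scaffold_98_55, had 92.6, 79.8, 54.8 and 71.6 FPKM in EWT at 12 h and 7.81, 9.82, 16.0 and 11.3 FPKM in EWT at 0 h, and at most 0.785 FPKM in CK at 12 h and 2.47 FPKM in CK at 0 h. Proline dehydrogenase, which breaks proline down, had 3 higher and 1 lower of 6, or 1 and 1 without CK 12 h replicate 4. Probable isoaspartyl peptidase/L-asparaginase 2, which releases ammonium from asparagine, summed to 448 ± 94.7 FPKM in EWT at 12 h and 54.1 ± 16.7 FPKM in EWT at 0 h, against 67.2 ± 49.9 FPKM in CK at 12 h and 235 ± 130 FPKM in CK at 0 h (interaction 5.08 ± 0.75, SE, adjusted p = 4.3e-06), although none of its 6 single models was called.

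**Figure D3:**
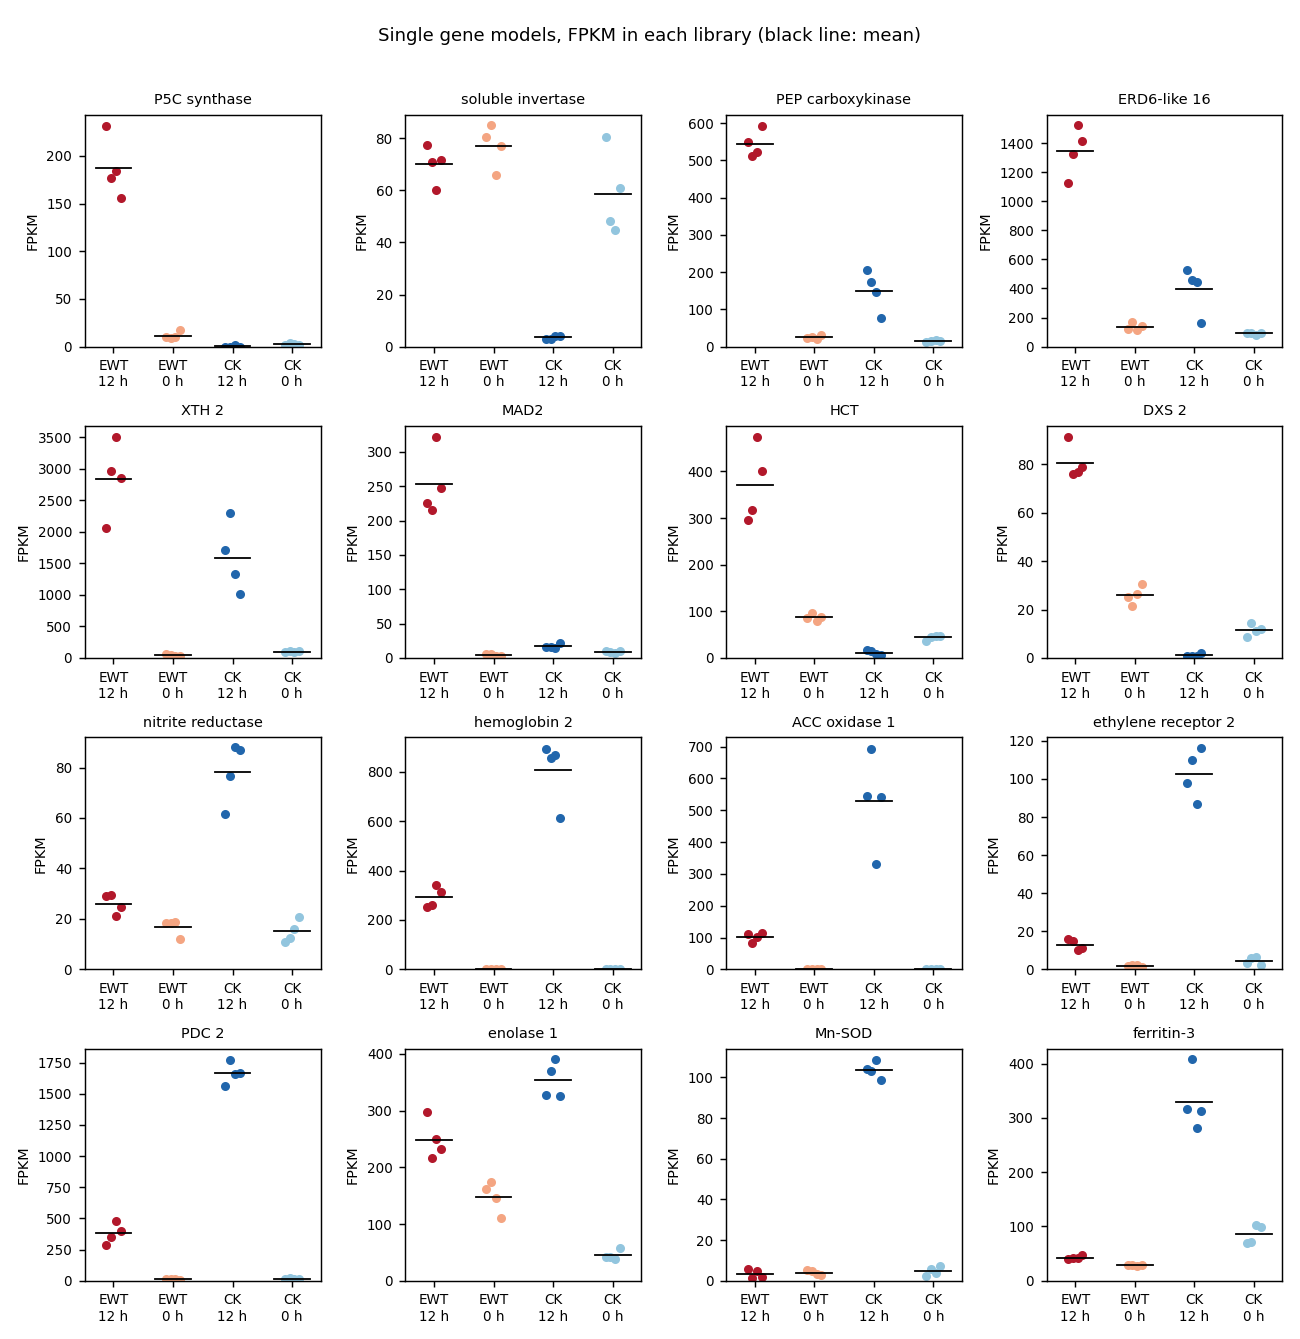
FPKM in each library for 16 gene models, with groups ordered EWT 12 h, EWT 0 h, CK 12 h and CK 0 h from left to right, points for single libraries and black lines for group means. In the upper 8 panels EWT at 12 h was above CK at 12 h on average and in every library except for XTH 2. In the lower 8 panels CK at 12 h was above EWT at 12 h in every library.

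Enzymes of lower glycolysis and of fermentation had more lower than higher changes. Enolase, which forms phosphoenolpyruvate, had 0 higher and 4 lower of 25, or 0 and 6 without CK 12 h replicate 4, with a sum of 2151 ± 199 FPKM in EWT at 12 h and 799 ± 147 FPKM in EWT at 0 h, against 4032 ± 543 FPKM in CK at 12 h and 578 ± 105 FPKM in CK at 0 h (SD, n = 4 each). Enolase 1 at evm_TU_scaffold_11394_34 had 297, 216, 251 and 233 FPKM in EWT at 12 h and 162, 174, 146 and 111 FPKM in EWT at 0 h. In CK it had 328, 369, 391 and 326 FPKM at 12 h and 41.1, 42.4, 39.0 and 57.1 FPKM at 0 h. EWT stood higher before flooding and lower after it (interaction -2.23 ± 0.26, SE, adjusted p = 1.8e-07). Phosphoglycerate kinase and mutase had 1 higher and 6 lower of 47. Pyruvate kinase had 0 and 4 of 56 (7.14%), near the background. The glyceraldehyde-3-phosphate dehydrogenase list had 5 and 8 of 49, or 3 and 6 without CK 12 h replicate 4. In upper glycolysis, fructokinase had 0 and 2 of 44 (4.55%), not above the background, and aldolase 0 and 1 of 17. Phosphofructokinase had 3 and 5 of 61, while hexokinase went the other way with 4 higher and 1 lower of 29. Cytosolic glyceraldehyde-3-phosphate dehydrogenase with the closest match in Antirrhinum summed to 5334 FPKM in EWT and 3974 FPKM in CK at 12 h, with an interaction of -0.12 ± 0.23 (SE, adjusted p = 0.78).

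Pyruvate decarboxylase, the first step of ethanol fermentation, had 2 higher and 8 lower of 26. Its list summed to 9826 ± 2144 FPKM in EWT at 12 h and 107 ± 17.2 FPKM in EWT at 0 h, against 12734 ± 1329 FPKM in CK at 12 h and 82.3 ± 13.1 FPKM in CK at 0 h (SD, n = 4 each). The match PDC 2 had 3 of these lower changes. Its model evm_TU_scaffold_11321_149 (chromosome 8, 162436497 to 162440020) had 286, 354, 483 and 400 FPKM in EWT at 12 h and 12.7, 11.9, 13.6 and 7.16 FPKM in EWT at 0 h. The CK libraries had 1565, 1772, 1661 and 1669 FPKM at 12 h and 11.5, 19.9, 13.1 and 10.8 FPKM at 0 h. The cultivars overlapped at 0 h, and the CK 12 h libraries lay above those of EWT (interaction -1.87 ± 0.28, SE, adjusted p = 1.1e-05). Summed over all models, PDC 2 had an interaction of -1.71 ± 0.32 (SE, adjusted p = 0.00016). The more abundant PDC 1 had a sum of 5765 FPKM in EWT and 6867 FPKM in CK at 12 h, and its interaction of -0.59 ± 0.31 (SE, adjusted p = 0.21) was not called. Whether the isoforms differed from each other in this was not tested.

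Alcohol dehydrogenase, which completes ethanol fermentation, had 2 higher and 5 lower of 40. The sum of the main match, alcohol dehydrogenase 1, was 9100 FPKM in EWT and 11427 FPKM in CK at 12 h, with an interaction of -0.03 ± 0.33 (SE, adjusted p = 0.97). Lactate dehydrogenase had 0 higher and 1 lower of 6. Alanine aminotransferase and glutamate decarboxylase, which store carbon and nitrogen as alanine and GABA during hypoxia, had interactions of 0.39 ± 0.23 (SE, adjusted p = 0.27) and 0.28 ± 0.34 (SE, adjusted p = 0.63) for their main matches.

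All 7 nitrite reductase models had a lower change, and 0 of 6 nitrate reductase models were called. Nitrite reductase converts nitrite to ammonium in the plastid. Its models summed to 95.3 FPKM in EWT at 12 h and 63.7 FPKM in EWT at 0 h, against 298 FPKM in CK at 12 h. The model evm_TU_scaffold_7511_3 (chromosome 14, 10219744 to 10220783) had 28.9, 29.3, 21.2 and 24.5 FPKM in EWT at 12 h and 18.4, 18.5, 18.6 and 11.8 FPKM in EWT at 0 h. Its CK values were 61.5, 76.6, 88.1 and 86.7 FPKM at 12 h and 11.0, 12.3, 16.0 and 20.9 FPKM at 0 h. The groups overlapped at 0 h and were apart at 12 h (interaction -1.76 ± 0.32, SE, adjusted p = 0.00017). The 7 calls held without CK 12 h replicate 4.

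Hemoglobin had 0 higher and 3 lower of 16, and all 3 were matched to non-symbiotic hemoglobin 2. Summed over its 11 models, hemoglobin 2 had 1369 FPKM in EWT at 12 h and 18.1 FPKM in EWT at 0 h, against 3211 FPKM in CK at 12 h and 11.6 FPKM in CK at 0 h (interaction -1.83 ± 0.26, SE, adjusted p = 2.1e-06). The model evm_TU_scaffold_10817_181 had 252, 260, 340 and 315 FPKM in EWT at 12 h and at most 0.824 FPKM in EWT at 0 h. In roots of CK, it had 894, 856, 868 and 611 FPKM at 12 h and at most 0.429 FPKM at 0 h. The cultivars were apart at 12 h and near 0 at 0 h, where the interaction depends on the pseudocount (-1.96 ± 0.60, SE, adjusted p = 0.028). A further model, evm_TU_scaffold_10817_162, was at 0 in all 0 h libraries and had 110, 107, 167 and 185 FPKM in EWT and 406, 382, 346 and 201 FPKM in CK at 12 h.

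ACC oxidase, which makes ethylene from ACC in the presence of oxygen, had 0 higher and 4 lower of 17. The list summed to 1003 ± 181 FPKM in EWT at 12 h and 520 ± 55.9 FPKM in EWT at 0 h, against 2118 ± 534 FPKM in CK at 12 h and 337 ± 24.3 FPKM in CK at 0 h (SD, n = 4 each). The ACC oxidase 1 model evm_TU_scaffold_11826_30 had 111, 84.0, 101 and 115 FPKM in EWT at 12 h and at most 0.923 FPKM in EWT at 0 h. CK roots had 543, 694, 332 and 541 FPKM at 12 h and at most 2.66 FPKM at 0 h (interaction -2.61 ± 0.74, SE, adjusted p = 0.017). A further ACC oxidase 1 model, evm_TU_scaffold_7093_110, had 235 to 397 FPKM in EWT and 235 to 495 FPKM in CK at 12 h, so the cultivars overlapped there and differed at 0 h, with 16.2 to 39.2 FPKM in EWT and 4.14 to 10.8 FPKM in CK. ACC synthase, the step before, had 3 higher and 3 lower of 15. Its abundant model evm_TU_scaffold_1617_59 had 137, 238, 197 and 186 FPKM in EWT at 12 h and 323, 415, 354 and 299 FPKM in EWT at 0 h. The same model had 406, 599, 488 and 471 FPKM in CK at 12 h and 261, 308, 357 and 337 FPKM at 0 h. It was lower in EWT at 12 h without overlap (interaction -1.53 ± 0.25, SE, adjusted p = 4.5e-05).

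Ethylene receptors and signalling genes had 0 higher and 11 lower of 47, or 1 and 10 without CK 12 h replicate 4. Of these, 4 of 13 were receptors and 5 of 13 were EIN3-binding F-box proteins, which remove the ethylene transcription factor EIN3. Both kinds are induced by ethylene in Arabidopsis. Ethylene receptor 2 at evm_TU_scaffold_2599_54 (chromosome 27, 1534655 to 1537626) had 15.9, 14.8, 10.3 and 11.0 FPKM in EWT at 12 h and 1.73, 2.18, 2.26 and 1.20 FPKM in EWT at 0 h. For CK the values were 98.0, 110, 86.7 and 116 FPKM at 12 h and 3.46, 5.89, 6.58 and 2.51 FPKM at 0 h. EWT was lower at both times and the gap was wider at 12 h (interaction -1.77 ± 0.34, SE, adjusted p = 0.00035). EIN3-binding F-box protein 2 at evm_TU_scaffold_200_14 had the other pattern. It had 208, 151, 139 and 161 FPKM in EWT at 12 h and 25.0, 18.2, 19.4 and 16.3 FPKM in EWT at 0 h. In CK it had 153, 178, 116 and 68.5 FPKM at 12 h and 3.73, 3.33, 5.67 and 4.47 FPKM at 0 h. The 12 h values overlapped (exact permutation p = 0.257, two-sided), and the interaction of -1.76 ± 0.31 (SE, adjusted p = 0.00013) came from the 0 h levels. The study names evm_TU_scaffold_398_5 and takes RAF6, a MAP kinase, as its Arabidopsis homologue, while the deposited annotation matches it to the serine/threonine-protein kinase CTR1. It had 31.9, 44.3, 39.5 and 31.0 FPKM in EWT at 12 h and 7.97, 12.0, 11.0 and 6.89 FPKM in EWT at 0 h. The CK libraries had 20.7, 22.6, 21.5 and 13.4 FPKM at 12 h and 11.1, 9.26, 8.65 and 9.27 FPKM at 0 h. Its interaction of 0.97 ± 0.32 (SE, adjusted p = 0.047) was just below the 2-fold limit and was not called.

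**Figure D4:**
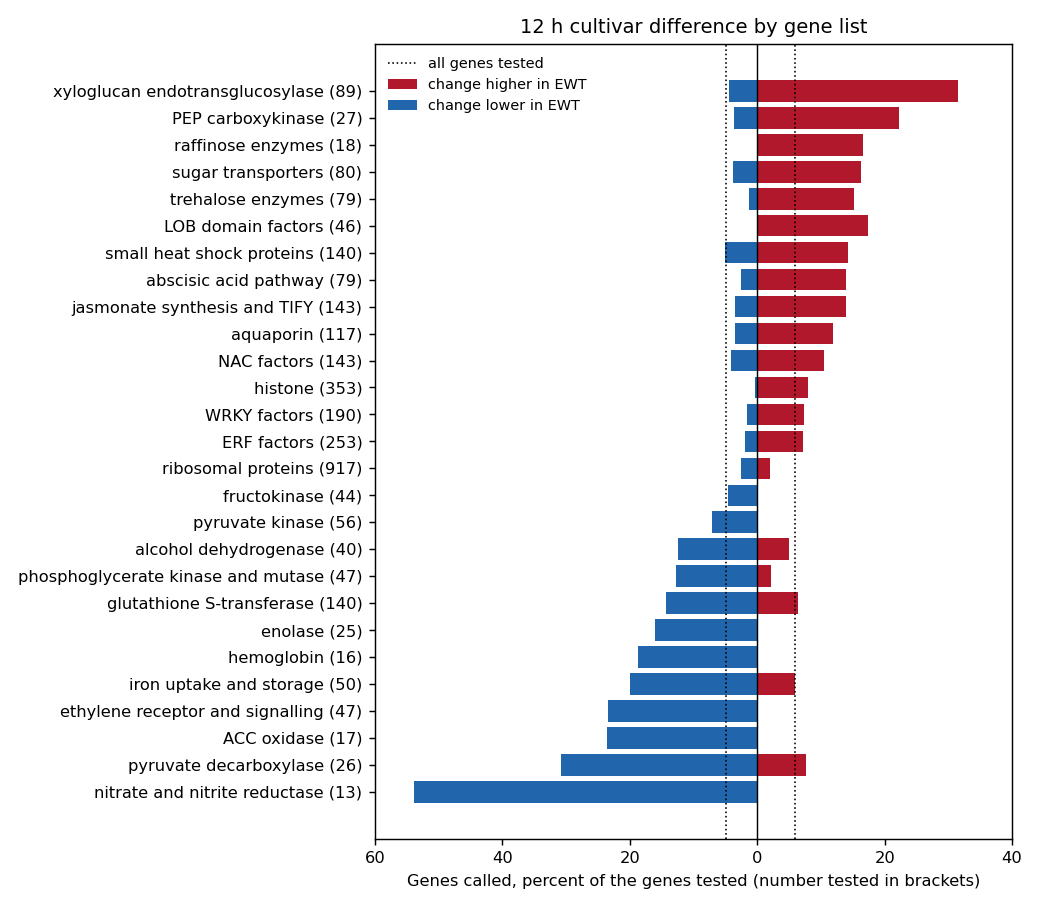
Share of the tested genes of each list whose interaction was called, in percent, with red bars to the right for a higher and blue bars to the left for a lower change in EWT, and the number tested in brackets. Dotted lines mark the shares over all genes tested, 5.97% and 4.83%. Xyloglucan endotransglucosylases had 28 of 89 to the right and nitrate and nitrite reductases 7 of 13 to the left.

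Among transcription factors, ERF factors had 18 higher and 5 lower of 253, NAC factors 15 and 6 of 143, and WRKY factors 14 and 3 of 190, of which the ERF and WRKY shares were near the background. Scaled by the fragments counted on genes, the ERF counts were 11 and 4 and the WRKY counts 9 and 4. NAC68 at evm_TU_scaffold_1540_93 was a 0 h difference, with 139, 104, 115 and 88.6 FPKM in EWT at 12 h and 0.854, 2.10, 0.980 and 2.40 FPKM in EWT at 0 h. Its CK values were 64.5, 116, 81.4 and 120 FPKM at 12 h and 7.82, 14.4, 8.50 and 13.0 FPKM at 0 h. NAC48 at evm_TU_scaffold_431_56 differed at 12 h, with 377, 314, 350 and 304 FPKM in EWT at 12 h and 93.9, 112, 87.6 and 101 FPKM in EWT at 0 h. In roots of CK, it had 1056, 1192, 949 and 757 FPKM at 12 h and 119, 134, 138 and 143 FPKM at 0 h (interaction -1.10 ± 0.25, SE, adjusted p = 0.0021). The DREB and TINY list had 8 higher and 5 lower of 45. The 2 genes whose match carries the name TINY were at or near 0 FPKM and were not tested. TINY2, the factor the study singles out, is in Arabidopsis the protein also named dehydration-responsive element-binding protein 3. Of 10 tested models with that match, 2 had a higher and 3 a lower change, and the most abundant of each are given here. The model evm_TU_scaffold_1122_82 had 84.7, 76.1, 104 and 97.2 FPKM in EWT at 12 h and 32.7, 20.6, 24.8 and 21.4 FPKM in EWT at 0 h. Its values in CK were 61.9, 48.1, 43.7 and 17.0 FPKM at 12 h and 31.1, 33.4, 36.3 and 48.7 FPKM at 0 h. It rose in EWT, where each 12 h library was above those of CK (interaction 1.81 ± 0.37, SE, adjusted p = 0.00092). The model evm_TU_scaffold_499_473 had 32.4, 29.7, 48.8 and 47.1 FPKM in EWT at 12 h and 6.77, 3.44, 2.59 and 2.36 FPKM in EWT at 0 h. In CK roots there were 107, 122, 85.2 and 68.0 FPKM at 12 h and 2.37, 1.87, 4.04 and 2.98 FPKM at 0 h. It rose in both cultivars and more in CK (interaction -1.61 ± 0.39, SE, adjusted p = 0.0047). Which model is the study's gene was not tested. DREB1A at evm_TU_scaffold_692_102 had an interaction of 0.31 ± 0.40 (SE, adjusted p = 0.71).

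Abscisic acid genes had 11 higher and 2 lower of 79. The receptor PYL1 at evm_TU_scaffold_1353_272, which binds abscisic acid and blocks the phosphatases that keep the signal off, had 74.8, 54.3, 118 and 98.4 FPKM in EWT at 12 h and 24.0, 18.8, 12.2 and 15.6 FPKM in EWT at 0 h. CK roots had 29.5, 19.6, 25.4 and 13.2 FPKM at 12 h and 13.0, 13.1, 10.6 and 17.1 FPKM at 0 h. It rose in EWT without overlap with CK at 12 h, and summed over 6 models PYL1 had an interaction of 1.74 ± 0.32 (SE, adjusted p = 0.00014). Of 36 abscisic acid receptor models 6 had a higher and 2 a lower change, with a median interaction of 0.18. The receptor PYL4 at evm_TU_scaffold_11661_234 was among the lower ones, with an interaction of -1.72. Jasmonate synthesis and TIFY genes had 20 higher and 5 lower of 143, of which the TIFY repressors of the jasmonate response held 10 and 1 of 46. Summed, the TIFY genes fell in both cultivars, to 399 FPKM in EWT and 400 FPKM in CK at 12 h. At 0 h they had 578 FPKM in EWT and 907 FPKM in CK. Scaled by the fragments counted on genes the jasmonate counts were 14 and 7. Cytokinin genes had 1 higher and 3 lower of 138, below the background in both directions.

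Small heat shock proteins, chaperones that hold unfolding proteins, summed to 19394 ± 3628 FPKM in EWT at 12 h and 270 ± 50.5 FPKM in EWT at 0 h, against 17427 ± 6359 FPKM in CK at 12 h and 235 ± 32.9 FPKM in CK at 0 h (SD, n = 4 each). The lowest CK 12 h sum, 7961 FPKM, was that of replicate 4. Of 140 models 20 had a higher and 7 a lower change, or 14 and 7 without it. Single models went opposite ways. The class II model evm_TU_scaffold_507_73 had 282, 194, 352 and 362 FPKM in EWT at 12 h and 0.570 to 2.88 FPKM in CK at 12 h, and was at 0 in all 0 h libraries except for 0.419 FPKM in EWT replicate 3. The class I model evm_TU_scaffold_1762_43 was at 0 in all 8 EWT libraries and had 461, 359, 314 and 101 FPKM in CK at 12 h. A related class I model, evm_TU_scaffold_1762_42, had 6.58, 2.49, 1.81 and 3.62 FPKM in EWT and 298, 229, 166 and 37.0 FPKM in CK at 12 h. Summed over its 28 models, the class II protein had 5877 FPKM in EWT and 4891 FPKM in CK at 12 h and a negative interaction of -1.21 ± 0.41 (SE, adjusted p = 0.034), while 6 of its models had a higher and 1 a lower change. The abundant copy evm_TU_scaffold_18_398 had 127, 106, 96.5 and 78.1 FPKM in EWT and 14.9, 18.9, 26.7 and 10.6 FPKM in CK at 0 h, and overlapped between the cultivars at 12 h. Heat shock 70 kDa proteins had 24 higher and 15 lower of 242. The heat shock 90 and ClpB class had 6 and 11 of 99, or 4 and 12 without CK 12 h replicate 4.

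Superoxide dismutase, which turns superoxide into hydrogen peroxide, had 2 higher and 5 lower of 26, and its sum was 1972 ± 206 FPKM in EWT at 12 h and 536 ± 109 FPKM in EWT at 0 h, against 2922 ± 209 FPKM in CK at 12 h and 494 ± 60.1 FPKM in CK at 0 h (SD, n = 4 each). The mitochondrial manganese enzyme had models on both sides. The model evm_TU_scaffold_443_417 had 5.58, 1.51, 4.62 and 2.05 FPKM in EWT at 12 h and 104, 103, 109 and 98.9 FPKM in CK at 12 h, with 2.47 to 7.40 FPKM in both cultivars at 0 h (interaction -4.85 ± 0.60, SE, adjusted p = 4.5e-07). The model evm_TU_scaffold_1693_432 had 195, 196, 213 and 207 FPKM in EWT at 12 h and 13.1 to 27.3 FPKM in EWT at 0 h, against 15.7 to 18.4 FPKM in CK at 12 h and 7.68 to 9.45 FPKM in CK at 0 h (interaction 2.40 ± 0.34, SE, adjusted p = 4.2e-06). Their protein sum had an interaction of -0.93 ± 0.23 (SE, adjusted p = 0.0029) and missed the 2-fold limit. Glutathione S-transferases, which conjugate toxic products of oxidation, had 9 higher and 20 lower of 140. Glutathione S-transferase F9 summed to 120 ± 23.4 FPKM in EWT at 12 h and 26.7 ± 1.94 FPKM in EWT at 0 h, against 545 ± 62.4 FPKM in CK at 12 h and 18.7 ± 1.90 FPKM in CK at 0 h (interaction -2.71 ± 0.28, SE, adjusted p = 3.4e-09).

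Class III peroxidases, which act in the cell wall, had 27 higher and 19 lower of 237. Peroxidase 47 at evm_TU_scaffold_4926_2 was far lower in EWT at both times, with 47.2, 44.7, 72.8 and 55.2 FPKM in EWT at 12 h and 14.1, 20.4, 19.4 and 17.6 FPKM in EWT at 0 h. The same model had 1300, 1849, 1753 and 1166 FPKM in CK at 12 h and 154, 172, 225 and 214 FPKM at 0 h (interaction -1.38 ± 0.37, SE, adjusted p = 0.012).

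Among cell wall genes the xyloglucan endotransglucosylase/hydrolases (XTHs), which cut and rejoin the xyloglucan chains between cellulose fibres, had the highest share of higher changes among the lists with over 50 genes tested. Of 89 models 28 had a higher and 4 a lower change, with a median interaction of 1.12. Scaled by the fragments counted on genes these counts were 21 and 4, and without CK 12 h replicate 4 they were 29 and 4. The list summed to 5384 ± 784 FPKM in EWT at 12 h and 980 ± 66.0 FPKM in EWT at 0 h, against 3518 ± 479 FPKM in CK at 12 h and 1695 ± 199 FPKM in CK at 0 h (SD, n = 4 each). The lowest EWT 12 h sum, 4405 FPKM, was above the highest CK 12 h sum, 4207 FPKM, and EWT lay below CK at 0 h. XTH 2 at evm_TU_scaffold_4534_21 (chromosome 9, 105926952 to 105928127) had 2063, 2963, 3506 and 2854 FPKM in EWT at 12 h and 68.8, 54.2, 28.7 and 32.6 FPKM in EWT at 0 h. For CK the values were 1719, 2305, 1327 and 1011 FPKM at 12 h and 96.0, 106, 92.3 and 113 FPKM at 0 h. The 12 h values overlapped (exact permutation p = 0.0571, two-sided), and those at 0 h did not (interaction 2.11 ± 0.38, SE, adjusted p = 0.00017). XTH 25 at evm_TU_scaffold_575_124 had 180, 94.7, 98.1 and 89.9 FPKM in EWT and 2.19, 2.82, 3.86 and 5.81 FPKM in CK at 12 h, against 2.36 to 4.99 FPKM and 0.738 to 1.14 FPKM at 0 h (interaction 3.17 ± 0.40, SE, adjusted p = 5.7e-07). Expansins, which loosen walls without cutting them, had 3 higher and 4 lower of 50.

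UDP-glucose 4-epimerase, which interconverts the sugar donors of wall and galactoside synthesis, stood out among the protein sums. Its bifunctional form 3 had 678 ± 83.7 FPKM in EWT at 12 h and 64.7 ± 22.4 FPKM in EWT at 0 h, against 85.4 ± 10.1 FPKM in CK at 12 h and 59.8 ± 3.49 FPKM in CK at 0 h (interaction 2.93 ± 0.29, SE, adjusted p = 1.5e-09). EWT at 12 h was above the other groups.

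Genes of lignin precursors were mixed. Caffeic acid 3-O-methyltransferase had 3 higher and 6 lower of 37, and the other monolignol enzymes 15 and 8 of 175. Shikimate O-hydroxycinnamoyltransferase (HCT) at evm_TU_scaffold_6083_356 had 296, 317, 474 and 400 FPKM in EWT at 12 h and 85.4, 95.7, 79.9 and 87.5 FPKM in EWT at 0 h. In CK it had 16.5, 14.1, 9.18 and 6.03 FPKM at 12 h and 37.2, 43.9, 47.2 and 47.8 FPKM at 0 h. It rose in EWT and fell in CK (interaction 4.10 ± 0.48, SE, adjusted p = 1.6e-07). Another HCT model, evm_TU_scaffold_4951_45, was called the other way, with an interaction of -2.05. The caffeic acid 3-O-methyltransferase model evm_TU_scaffold_608_56 had 114, 133, 140 and 158 FPKM in EWT at 12 h and 125, 89.4, 91.0 and 97.2 FPKM in EWT at 0 h. The CK libraries had 450, 429, 454 and 298 FPKM at 12 h and 107, 117, 120 and 108 FPKM at 0 h (interaction -1.39 ± 0.20, SE, adjusted p = 3.9e-06). Laccases, which polymerise lignin, had 15 higher and 5 lower of 118.

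Lists of lipid and terpenoid enzymes were added after the values were seen. 3-Ketoacyl-CoA synthases, which lengthen fatty acids for waxes and suberin, had 8 higher and 0 lower of 29. They summed to 88.6 ± 4.03 FPKM in EWT at 12 h and 207 ± 30.4 FPKM in EWT at 0 h, against 68.6 ± 3.23 FPKM in CK at 12 h and 312 ± 46.6 FPKM in CK at 0 h (SD, n = 4 each). The model evm_TU_scaffold_1017_470 rose in EWT, with 11.2, 15.0, 15.7 and 15.7 FPKM in EWT at 12 h and 0.954 to 1.43 FPKM in EWT at 0 h, against 0 in all CK 12 h libraries and 1.80 to 3.92 FPKM in CK at 0 h. 1-Deoxy-D-xylulose-5-phosphate synthase (DXS), the entry to the plastid route to terpenoids, had 4 higher and 1 lower of 14. The DXS 2 model evm_TU_scaffold_11378_89 (chromosome 1, 301305963 to 301313543) had 91.3, 76.1, 76.7 and 78.9 FPKM in EWT at 12 h and 25.0, 21.3, 26.3 and 30.6 FPKM in EWT at 0 h. Its CK values were 0.963, 0.613, 0.606 and 1.99 FPKM at 12 h and 8.79, 14.5, 11.1 and 11.8 FPKM at 0 h (interaction 5.13 ± 0.40, SE, adjusted p = 3.4e-11). It rose in EWT and fell in CK.

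Aquaporins had 14 higher and 4 lower of 117, or 13 and 7 without CK 12 h replicate 4, with a median interaction of -0.05 that changed sign without that library (0.05). PIP2-7 at evm_TU_scaffold_344_54, a plasma membrane water channel, had 430, 500, 572 and 509 FPKM in EWT at 12 h and 351, 294, 229 and 241 FPKM in EWT at 0 h. In roots of CK, it had 177, 154, 125 and 101 FPKM at 12 h and 199, 166, 212 and 240 FPKM at 0 h (interaction 1.43 ± 0.29, SE, adjusted p = 0.00087). Summed over 16 models, NIP2-1, a channel that carries silicic acid in grasses, had 351 ± 74.8 FPKM in EWT at 12 h and 26.9 ± 5.06 FPKM in EWT at 0 h, against 2.48 ± 1.30 FPKM in CK at 12 h and 15.9 ± 5.04 FPKM in CK at 0 h (interaction 6.43 ± 0.54, SE, adjusted p = 4.6e-11). Of 7 tested NIP2-1 models 3 had a higher and 0 a lower change. Most of the EWT 12 h sum came from evm_TU_scaffold_285_98, described below among the models missing in CK. Iron uptake and storage genes had 3 higher and 10 lower of 50. The ferritins among them had 2 higher and 1 lower of 10, and a ferritin-3 model with a higher change had an interaction of 3.31. The iron store ferritin-3 at evm_TU_scaffold_10885_189 had at most 46.7 FPKM in EWT at 12 h and 29.0, 28.5, 26.5 and 29.8 FPKM in EWT at 0 h. CK roots had 316, 408, 282 and 313 FPKM at 12 h and 69.0, 72.0, 103 and 99.2 FPKM at 0 h (interaction -1.37 ± 0.27, SE, adjusted p = 0.00063). Potassium transporters and channels had 2 higher and 9 lower of 96.

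The spindle checkpoint protein MAD2, which delays chromosome separation until all chromosomes are attached, had 5 higher and 0 lower of 6 in a list added after the values were seen. Its model evm_TU_scaffold_1686_106 (chromosome 27, 175293817 to 175295486) had 226, 216, 322 and 248 FPKM in EWT at 12 h and 5.70, 6.10, 3.50 and 2.80 FPKM in EWT at 0 h. The same model had 15.5, 16.4, 14.9 and 21.4 FPKM in CK at 12 h and 9.53, 9.19, 6.74 and 10.3 FPKM at 0 h. EWT was lower at 0 h and far higher at 12 h (interaction 4.90 ± 0.46, SE, adjusted p = 1.6e-09), and a second model, evm_TU_scaffold_9741_5, had 23.6, 25.3, 34.6 and 28.0 FPKM in EWT and 1.59, 2.84, 2.52 and 2.53 FPKM in CK at 12 h. Cyclins and cyclin-dependent kinases had 8 higher and 4 lower of 176 (6.82% called), below the background in both directions.

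Histones had 28 higher and 1 lower of 353 (8.22% called, against 10.8% of all genes tested), with a median interaction of 0.82. Their share of higher changes was near the background and that of lower changes below it. Scaled by the fragments counted on genes the histone counts were 19 and 1, and without CK 12 h replicate 4 they were 40 and 1. Histone H4 at evm_TU_scaffold_6926_63 had 284, 247, 347 and 286 FPKM in EWT at 12 h and 51.7, 75.1, 45.5 and 39.0 FPKM in EWT at 0 h. For CK the values were 87.5, 71.8, 68.4 and 87.9 FPKM at 12 h and 57.2, 60.1, 61.4 and 74.9 FPKM at 0 h (interaction 2.18 ± 0.33, SE, adjusted p = 1.5e-05). Ribosomal proteins had 18 higher and 23 lower of 917 (4.47% called), below the background in both directions. They summed to 15954 ± 2163 FPKM in EWT at 12 h and 27528 ± 5697 FPKM in EWT at 0 h, against 18612 ± 3047 FPKM in CK at 12 h and 30770 ± 4881 FPKM in CK at 0 h (SD, n = 4 each). SMU2, a splicing factor, had 548, 394, 532 and 455 FPKM in EWT at 12 h and 14.9, 16.6, 12.8 and 14.7 FPKM in EWT at 0 h at evm_TU_scaffold_6916_19. In CK that model had 12.5, 7.05, 8.78 and 9.39 FPKM at 12 h and 10.7, 10.6, 9.68 and 8.42 FPKM at 0 h, so it rose in EWT alone (interaction 5.10 ± 0.29, SE, adjusted p = 1.2e-14).

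Of 15668 tested genes that had a protein match, were detected in both cultivars and reached 10 FPKM in a group, 2077 (13.3%) were called. Of these, 2004 had 12 h changes that did not overlap between the libraries of EWT and CK, 1144 higher and 860 lower, while 30.8% of all 15668 did not overlap. The overlap was judged on the values that gave the call, so it adds no support to the call. Beyond genes described above, those with the largest positive interactions included serine carboxypeptidase 1 (evm_TU_scaffold_907_176, 7.73 ± 1.57, SE, adjusted p = 0.00076), NAD(H) kinase 1, which makes the NADP pool (evm_TU_scaffold_851_93, 6.12), a further caffeic acid 3-O-methyltransferase (evm_TU_scaffold_1333_81, 5.88) and a model of sucrose-phosphate synthase 2, which makes sucrose (5.72). Those with the largest negative interactions included a pair of GDSL lipases matched to At2g30310 (evm_TU_scaffold_1064_290, -7.28 ± 0.44, SE, adjusted p = 6.7e-14, and evm_TU_scaffold_1064_90, -6.56), a model of early nodulin-93 (-6.39) and the helicase Q-like 3 (evm_TU_scaffold_463_143, -5.66). The lipase evm_TU_scaffold_1064_290 had 21.6, 23.6, 18.1 and 15.5 FPKM in EWT at 12 h and 6.26, 8.49, 10.7 and 9.15 FPKM in EWT at 0 h. In CK it had 58.8, 60.5, 47.5 and 19.0 FPKM at 12 h and 0, 0, 0 and 0.109 FPKM at 0 h, so the gene was near 0 in unflooded CK and expressed in unflooded EWT. The early nodulin-93 model had 0.416, 6.22, 3.10 and 0.305 FPKM in EWT and 126, 139, 85.4 and 140 FPKM in CK at 12 h, and was at 0 in all 0 h libraries.

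Gene models seen in 1 cultivar alone made up another set. Of 4755 tested genes with under 3 fragments in total over the 20 CK libraries of the series, 1385 (29.1%) were called, 1083 with a higher and 302 with a lower change. Of 2751 with under 3 fragments over the 20 EWT libraries, 545 (19.8%) were called, 179 higher and 366 lower. Such genes could pass the filter of at least 1 FPKM in at least 4 libraries only with libraries of the cultivar that expresses them. Their shares and directions therefore describe that cultivar and are not set against the background. For these genes the interaction is the change of the other cultivar alone. Strongest among those missing in CK was a model without a protein match, with 454, 237, 399 and 331 FPKM in EWT at 12 h and 3.12, 2.08, 2.75 and 3.90 FPKM in EWT at 0 h. NIP2-1 at evm_TU_scaffold_285_98 had 429, 293, 267 and 348 FPKM in EWT at 12 h and 8.94, 6.15, 11.5 and 12.4 FPKM in EWT at 0 h, and the mitochondrial chaperonin CPN60 at evm_TU_scaffold_615_6, which helps proteins fold after import, had 390, 329, 252 and 329 FPKM and 7.36, 11.7, 15.9 and 14.3 FPKM. Both were at 0 in all 8 CK libraries compared. Strongest among those missing in EWT was a model matched to phenylalanine--tRNA ligase, evm_TU_scaffold_11345_60, with 50.0, 47.7, 39.5 and 53.7 FPKM in CK at 12 h and 3.15, 8.80, 7.86 and 7.71 FPKM in CK at 0 h. A gene absent from a genome and a gene whose sequence keeps its reads from mapping cannot be told apart here, and near-identical copies can exchange fragments since the handling of multiply mapped reads was not given.

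Gene models with the same protein match were also summed before the fit, and a called sum can rest on 1 copy. Of 13278 protein names, 910 (6.85%) had a higher and 798 (6.01%) a lower change in EWT, or 696 and 959 when scaled by fragments counted on genes. Of 3071 protein names with at least 2 tested models and at least 1 called model, the sum was called for 1061 and not for 2010, and 358 had models called in both directions. Among the genes above, the sums were called for PEP carboxykinase 1 (1.20), ERD6-like 16 (1.29), TPS7 (1.35), XTH 2 (1.77), MAD2 (4.61), DXS 2 (3.70), SMU2 (3.19), ethylene receptor 2 (-1.24), ACC oxidase 1 (-2.17), PDC 2 (-1.71) and enolase 1 (-1.58), each in the direction of the single model. For SMU2, 1 of 18 tested models was called. They were not called for early nodulin-93 (-0.36), the class I heat shock protein of evm_TU_scaffold_1762_42 (0.99), LOB domain-containing protein 41 (0.46), EIN3-binding F-box protein 2 (-0.69), peroxidase 47 (-0.62), NAC48 (-0.75), ferritin-3 (-0.48) and PIP2-7 (0.86).

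The levels at the other times of the series show how far the 12 h values extend. The following sums are means of 4 libraries and share their 0 h libraries with the 12 h comparison. PEP carboxykinase summed to 787 FPKM in EWT and 653 FPKM in CK at 3 h, and to 1154 FPKM in EWT and 411 FPKM in CK at 24 h. MAD2 summed to 119 FPKM in EWT and 21.8 FPKM in CK at 3 h, and to 280 FPKM in EWT and 25.8 FPKM in CK at 24 h. Hemoglobin summed to 1638 FPKM in EWT and 2041 FPKM in CK at 3 h, and to 1247 FPKM in EWT and 3051 FPKM in CK at 24 h. The cultivars were thus nearer to each other at 3 h than at 12 h in PEP carboxykinase and hemoglobin, while the nitrite and nitrate reductase sum was higher in both at 3 h, with 720 FPKM in EWT and 1020 FPKM in CK. These differences between times were not tested.

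**Figure D5:**
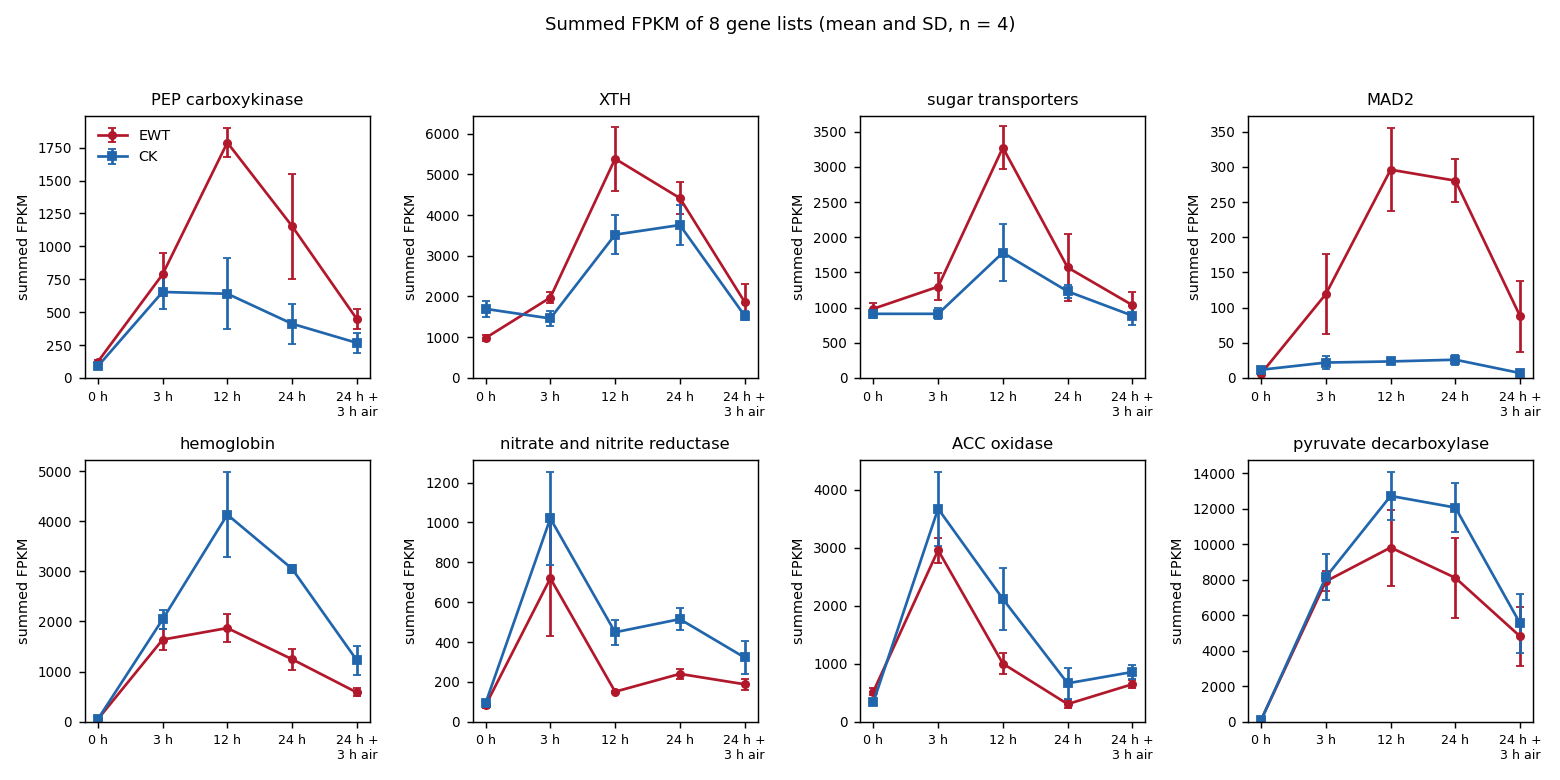
Summed FPKM of 8 gene lists over the flooding times and the reoxygenation that followed, as means with SD bars (n = 4 libraries) for EWT (red circles) and CK (blue squares). At 12 h EWT was above CK in the upper 4 lists, for example at 1789 and 640 FPKM for PEP carboxykinase, and below CK in the lower 4, for example at 1869 and 4131 FPKM for hemoglobin.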

How the data were processed

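RNA of chrysanthemum roots was sequenced from poly-A selected libraries. According to the methods and the submitters' processing notes, reads were cleaned with fastp, mapped to a published chrysanthemum genome with HISAT2 2.0.5 and counted with featureCounts 1.5.0-p3, and the authors deposited FPKM values of 178540 genes together with gene lengths, positions and best protein matches (106614 genes). The sources used here do not name the build, and coordinates are those of the deposited table. FPKM times gene length gave whole fragments for 100% of values within 0.01 of a fragment.

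The test was limma 3.58.1 in R 4.3.3, with an intensity trend in eBayes, applied to log2(FPKM + 0.1). The model had 10 group means over 40 libraries, leaving 30 residual degrees of freedom, and covered the 89517 genes with at least 1 FPKM in at least 4 libraries. The groups outside the contrast added only to the spread. The procedure was tested on simulated data. Exact permutation tests used scipy 1.17.1.

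Gene lists were matched by words in the protein names. Named genes were the 12 largest interactions each way among well-expressed genes (at least 10 FPKM in a group) that did not overlap, the most abundant called member of a list in each direction and its most abundant member, the gene the study names, matches to TINY, and the 3 strongest genes missing in a cultivar. The second P5CS and MAD2 models, XTH 25, histone H4, SMU2, PIP2-7, ethylene receptor 2, ACC oxidase 1 (evm_TU_scaffold_11826_30), hemoglobin 2 (evm_TU_scaffold_10817_162), PDC 2, enolase 1, manganese superoxide dismutase (evm_TU_scaffold_443_417) and the heat shock model evm_TU_scaffold_1762_43 were chosen after their values were seen, as were the named protein sums. The comparison, lists and members were chosen with earlier results of these data known, and 12 of 100 lists after the values were seen. Alternatives were other pseudocounts, filters, scalings, weights, thresholds, a replicate block and leaving out each library.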

Additional observations from a re-analysis of the deposited data

Results flagged for a closer look

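The test of the difference between the cultivars' 12 h changes itself called 5348 genes with a higher and 4326 with a lower change in EWT, as described above.

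Of 106 groups of 4 libraries examined over the strongest genes and the genes chosen by name, 14 held a library far from the other 3, where chance gives about 1 in 20. Most of these were 1 library of few fragments among libraries at or near 0. These were evm_TU_scaffold_364_68 (P5CS) at 1.20 FPKM in CK 12 h replicate 3, evm_TU_scaffold_507_73 (small heat shock protein) at 0.419 FPKM in EWT 0 h replicate 3, evm_TU_scaffold_1085_109 (DXS 2) at 1.28 FPKM in CK 12 h replicate 1 and evm_TU_scaffold_1064_290 (GDSL lipase) at 0.109 FPKM in CK 0 h replicate 4. The same held for a sucrose-phosphate synthase 2 model at 0.572 FPKM and evm_TU_scaffold_455_261 (epoxide hydrolase 2) at 0.703 FPKM, both in CK 12 h replicate 4, and for the TINY match evm_TU_scaffold_5271_78 at 0.441 FPKM in CK 12 h replicate 2 and 0.251 FPKM in CK 0 h replicate 3.

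In the others the outlying library lay within a group that expressed the gene. The 3-ketoacyl-CoA synthase evm_TU_scaffold_1017_470 had 11.2 FPKM and the GDSL lipase evm_TU_scaffold_1064_90 had 43.5 FPKM in EWT 12 h replicate 1. The DXS 2 model evm_TU_scaffold_325_96 had 3.78 FPKM in EWT 0 h replicate 3, the sucrose-phosphate synthase 2 model had 0.669 FPKM in EWT 0 h replicate 1, and the glutathione S-transferase evm_TU_scaffold_3155_86 had 0.539 FPKM in the same library. DREB1A at evm_TU_scaffold_692_102 had 255 FPKM in CK 12 h replicate 1, against 448 to 496 FPKM in the other 3 libraries of that group.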

How the results depend on the processing

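Of the 224 called genes chosen by the rule or later, 0 reversed direction under the alternatives run, 138 kept their call under every alternative and 86 lost it under at least 1, and 23 of the 24 strongest genes kept it, the small heat shock model evm_TU_scaffold_1762_42 being the exception. At an unadjusted p of at most 0.05 and 2-fold, 10159 genes had a higher and 8387 a lower change in EWT. At 4-fold, 396 protein sums had a higher and 316 a lower change. Leaving out each of the 16 libraries in turn gave 4603 to 5674 higher and 3658 to 4430 lower genes, and 794 to 1000 higher and 713 to 830 lower protein sums. Pseudocounts of 1 and 0.01 gave 7195 and 3808 higher and 5412 and 3029 lower genes. Scaling by the fragments counted on genes gave 4225 higher and 4687 lower genes and moved the median interaction to -0.08, against 0.04. Of alternatives chosen after seeing the data, voom on whole fragments recovered from FPKM gave 4894 higher and 4198 lower genes. The edgeR and DESeq2 tests planned for recovered fragments were not run, since the deposited unit is FPKM. Hemoglobin 2 (evm_TU_scaffold_10817_181), which starts near 0, lost its call in 10 and ACC oxidase 1 (evm_TU_scaffold_11826_30) in 7 of 26 alternatives.

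The replicate numbers did not pair the libraries. Over 24 pairs of same-numbered libraries in different groups, the correlation of deviations from group means lay between -0.082 and 0.02, 0 pairs were above 0.1, and 5 pairs were the best match of their number. With the replicate number as a block, 4728 genes had a higher and 3716 a lower change.

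Depth limits low genes most in CK at 12 h, where 3896104 to 4632569 fragments were counted.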
